A study of Mus musculus with 4 samples.

Results

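Translation factors are the soluble proteins that load messenger RNA onto ribosomes and drive peptide synthesis, and their genes were followed through the last stages of red cell development. The set was every gene symbol that begins with Eif1 to Eif6 or with Eef1 or Eef2, apart from the 4 eIF2 kinases Eif2ak1 to Eif2ak4, which gave 61 of the 19564 symbols measured. Of these, 53 were Eif symbols and 8 were Eef symbols, and they were grouped by factor number. The rule also takes in 4 Argonaute genes, listed under their older symbols Eif2c1 to Eif2c4, and a few regulators such as the kinase gene Eef2k. Members were taken by name, with earlier results of these data known.

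RNA came from mouse fetal liver cells sorted by flow cytometry on TER119, an erythroid surface antigen, and CD71, the transferrin receptor, from E14.5 embryos, and was extracted directly, without culture. R2 holds proerythroblasts and early basophilic erythroblasts, R3 early and late basophilic erythroblasts, R4 mostly polychromatophilic and orthochromatophilic erythroblasts, and R5 late orthochromatophilic erythroblasts with reticulocytes, which have shed the nucleus. Strain, genotype and the number of pooled embryos are not given in the labels. Each population gave 1 library of polyadenylated RNA, so no difference has a replicate check, there is no test across genes, and every count describes these 4 libraries.

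Translation starts when eIF1, eIF1A, eIF3 and eIF5 join the small ribosomal subunit together with eIF2, which carries the initiator tRNA. The eIF4 proteins bind the cap of the messenger RNA and unwind its leader, eIF5B joins the large subunit, and eEF1 and eEF2 then add amino acids and move the ribosome along. In erythroblasts this machinery makes globin in great excess while the cell stops dividing and clears its organelles, and the late reticulocyte goes on translating with the messenger RNA it holds.

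Values are RPKM as the authors deposited them, that is, reads scaled to gene length and library size, so that levels of different genes can be compared per length. A change is the log2 ratio of RPKM + 1, later population over earlier, and a gene past 2-fold either way is called lower or higher. Where 4 values are given from R2 to R5, they are those of R2, R3, R4 and R5 in that order. The step size of the values implied between 20700000 reads (R5) and 27400000 reads (R4) per library. Globin transcripts took 81.9% of the summed RPKM in R5, against 5.52% in R2, which lowers the RPKM of other genes, and in bulk samples fewer cells of a type and less RNA per cell cannot be told apart. Hba-a1 and Hba-a2 were listed at equal values in every library, 306178 RPKM each in R5. Whether the same reads entered that percent for both was not tested. The median log2 ratio of the 9942 genes with at least 1 RPKM in some library came to -1.09 for R3 against R2, -0.77 for R4 against R3, 0.27 for R5 against R4 and -1.65 for R5 against R2. Scaling each library by the median of its gene ratios moved these medians to -0.37, -0.06, 0.07 and -0.42, so changes are given beside the all-gene median or within a library. Erythroid genes were present in each library, with Slc4a1, the anion exchanger of the red cell membrane, at 2342 RPKM in R3, against 164 in R2. All 10 granulocyte markers in the files were above 0 in every library, and their summed level was 6127, 426, 234 and 469 RPKM from R2 to R5, so it was highest in R2, as most translation factors were. Summed hepatocyte markers were at 224, 546, 186 and 399 RPKM, macrophage markers at 98.0, 56.5, 23.8 and 56.8, megakaryocyte markers at 37.1, 41.6, 22.4 and 66.4, and lymphoid markers at 25.04, 2, 1.15 and 2.5 from R2 to R5, each higher in R5 than in R4, as most translation factors were. Of all these markers in the files, Cd3e was the one listed at 0. The part of these cell types in the values below was not tested.

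Translation factor transcripts were most abundant in R2 and least in R4, with a slightly larger share again in R5. The 61 genes together made up 3.50%, 2.44%, 1.60% and 1.93% of non-globin RPKM from R2 to R5, a share within each library that does not depend on scaling between libraries. Leaving out Eef1a1, the most abundant member, the shares were 2.52%, 1.75%, 1.22% and 1.44%, with the same order. Eef symbols, with Eef2k and Eef1e1 counted in, held 0.751% of non-globin RPKM in R4, against 1.82% in R2. Eif symbols, without the Argonautes, held 0.834% in R4, against 1.66% in R2. That sum also counts Eif5a, at 184 RPKM in R4, the eIF4E-binding proteins and Eif6. The sums by symbol therefore do not separate initiation from elongation. Genes at 100 RPKM or more numbered 25, 10, 5 and 6 of the 61 from R2 to R5.

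**Figure D1:**
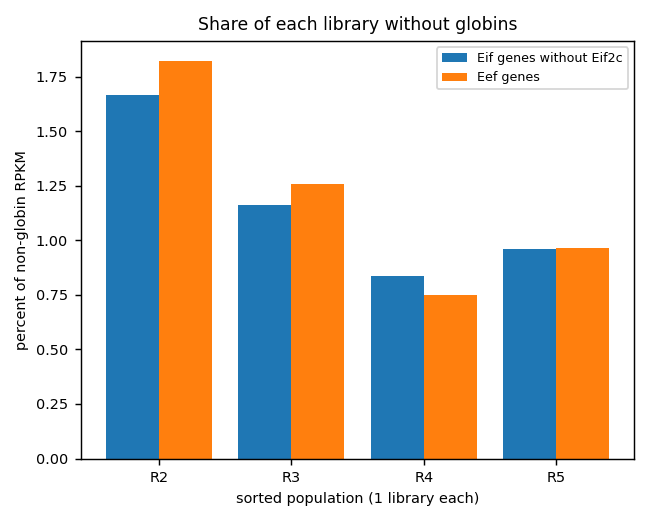
Bars give the percent of non-globin RPKM held by Eif genes without the Argonaute symbols (blue) and by Eef genes (orange) in each library, 1 library per population. Both peak in R2 and are smallest in R4, where the Eef share of 0.751% lies under the Eif share of 0.834%, which counts Eif5a.

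Of the 57 members with at least 1 RPKM in some library, 53 had their highest value in R2, as 86.2% of all genes did, and 46 their lowest in R4, as 73.2% of all genes did. Median scaling left 45 highest in R2 and 33 lowest in R4, beside 62.4% and 37.3% of all genes, and removal of globins left 46 and 42, beside 69.7% and 56.1%. As deposited, the order R2 above R3 above R4, with R5 above R4, held for 46 of the 57, and for 69.5% of all genes past that filter. Another 7 were lower at each step, beside 13.6% of all genes, namely Eif1ay, Eif2s2, Eif2s3y, Eif4e, Eif4ebp2, Eif4g2 and Eif5b. Neither pattern held for 4 members, Eef2k, Eif2c2, Eif5 and Eif5a2, beside 16.9% of all genes.

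In R3 against R2, 43 of the 57 were at least 2-fold lower, where 55.1% of all genes were, and 1 was higher, Eif5a2, where 3.81% of all genes were. In R4 against R3, 42 were lower, where 32.1% of all genes were, and none was at least 2-fold higher, where 0.493% of all genes were. In R5 against R4, 3 were higher, Eef1b2, Eef1g and Eif4ebp1, where 3.96% of all genes were, and 1 was lower, Eif5, where 0.604% of all genes were. Over the whole course, R5 against R2, 52 were lower, where 76.9% of all genes were, and 0 were higher, where 2.74% of all genes were. The share of translation factor genes called lower was above that of all genes in the steps to R3 and R4 and over the whole course, and the share called higher in R5 against R4 was close to it.

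The member medians came to -1.30 for R3 against R2, -1.18 for R4 against R3, 0.42 for R5 against R4 and -2.14 for R5 against R2. Against the all-gene medians these lay -0.21, -0.41, 0.15 and -0.49 apart, and the distance depended on how low genes were treated. With a pseudocount of 0.1 RPKM it was 0.030, -0.18, 0.030 and -0.065, so the set then moved close to the median gene except in R4 against R3. With a pseudocount of 5 RPKM the distance was wider, at -0.59, -0.58, 0.19 and -0.90. The members lay closer together than all genes did. The interquartile range of the R5 against R2 ratio was 0.50 over the members and 1.07 over all genes, and 0.47 and 1.13 among genes with a mean of at least 5 RPKM.

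After either rescaling, the share of members called lower in the steps to R3 and to R4 lay under that of all genes. For R5 against R2 it lay above, at 15.8% beside 13.7% after median scaling and 40.4% beside 29.8% after globin removal. The member median stayed under the all-gene median in the steps to R3 and R4. The distance was -0.071 and -0.14 after median scaling. Globin removal gave -0.074 and -0.23. So few genes were called lower in R4 against R3 that the 0 members there do not set the group apart. With median scaling 8 members were lower and 3 higher in R3 against R2, where 18% and 8.38% of all genes were. For R4 against R3 the counts were 0 lower and 1 higher, where 0.382% and 4.26% of all genes were, and the 1 was Eif5. For R5 against R4 they were 3 lower and 0 higher, beside 2.56% and 1.75% of all genes, and for R5 against R2 9 lower and 1 higher, beside 13.7% and 9.42%. The 9 were Eif1a, Eif2b1, Eif2c1, Eif2s3x, Eif4a2, Eif4b, Eif4e, Eif4g1 and Eif4g3, and the 1 was Eef2k. With globins removed and the rest rescaled, R3 against R2 had 11 lower and 3 higher, beside 22.8% and 7.82% of all genes, and R4 against R3 had 0 lower and 1 higher, beside 2.83% and 1.98%. R5 against R4 then had 3 lower and 1 higher, beside 1.58% and 2.98%, and R5 against R2 had 23 lower and 0 higher, beside 29.8% and 7.36%. Among the 51 members with a mean of at least 5 RPKM, as deposited, 40 were lower and 0 higher in R3 against R2, beside 54.6% and 6% of all such genes, and 40 lower and 0 higher in R4 against R3, beside 51.8% and 0.736%. In R5 against R4 1 was lower and 3 higher, beside 0.906% and 5.93%, and in R5 against R2 47 were lower and 0 higher, beside 79.1% and 4.27%. R5 set directly against R3 had 12 of the 57 lower and 0 higher, beside 13.1% and 0.664% of all genes, a comparison without the R2 library that was added after the data were seen. Under all 3 scalings 47 of the 57 were lower in R5 than in R2 and 0 were higher. The direction of the other 10 turned with the scaling. The all-gene median of R5 against R2 was also negative, at -1.65 in deposited values, -0.42 after median scaling and -0.68 after globin removal. The share of all genes lower under all 3 was not counted, so the 47 does not set the members apart.

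**Figure D2:**
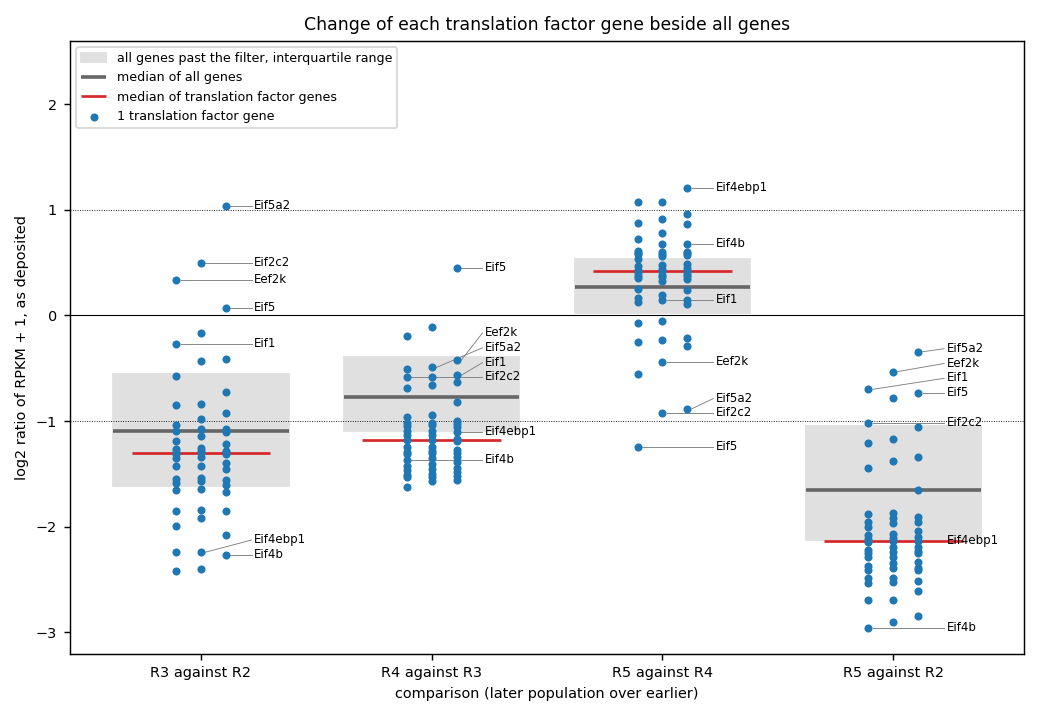
Each blue point is 1 of the 57 genes and gives its log2 ratio of RPKM + 1 in 1 of the 4 comparisons, later population over earlier. The grey box and dark line give the interquartile range and median of all 9942 genes and the red line the member median, which in R5 against R2 lies at -2.14, with Eif4b lowest at -2.96 and Eif5a2 highest at -0.34.

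Many messenger RNAs of the translation machinery are known to begin with an uninterrupted stretch of pyrimidines, the 5′ terminal oligopyrimidine (TOP) tract, through which growth signals control their translation. RefSeq start sites (build GRCm38.p6, not the mm9 build of the files) were matched by symbol for 47 of the 61 genes, and the 25 bases on each side of any annotated start were searched on the gene's strand for unbroken runs of C and T that hold at least 1 C. A run of 10 bases or more was found in 12 of the 47 genes, or 25.5%, and in 10.6% of all 27025 genes with a sequence. A run of 8 or more was found in 14, or 29.8%, and in 22.03% of all. Neither the 47 genes nor this background was limited to genes with at least 1 RPKM in some library. The 6 windows shown were picked after their values were seen, so they show no link between run and ratio. They set 4 genes that were much lower in R5, all with a run of 8 or more, against 2 without one that were less so. Each window is at the annotated start with the longest run, and capitals mark that run where it reached 8 bases.
Eef1a1: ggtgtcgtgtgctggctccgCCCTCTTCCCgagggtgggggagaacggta
Eef2: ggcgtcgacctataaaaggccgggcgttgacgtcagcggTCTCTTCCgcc
Eif3f: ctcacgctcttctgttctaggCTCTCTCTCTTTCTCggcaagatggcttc
Eif2s3x: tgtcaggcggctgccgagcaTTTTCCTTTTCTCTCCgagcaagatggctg
Eif5: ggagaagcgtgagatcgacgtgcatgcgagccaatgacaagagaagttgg
Eif1: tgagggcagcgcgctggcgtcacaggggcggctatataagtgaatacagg
The windows lie at chr9:78481700-78481749 on the minus strand (Eef1a1), chr10:81176606-81176655 on the plus strand (Eef2), chr7:108934390-108934439 on the plus strand (Eif3f), chrX:94212627-94212676 on the minus strand (Eif2s3x), chr12:111538076-111538125 on the plus strand (Eif5) and chr11:100319924-100319973 on the plus strand (Eif1). The marked run of Eef2 begins at base 15 counted from the annotated start, so it is not shown to be a terminal tract. The picked windows do not stand for the 47 genes, since genes with and without a run of 8 or more had close medians. The median log2 ratio of R5 against R2 was -2.04 for the 14 genes with a run of 8 or more and -2.14 for the 33 without. These medians include members under 1 RPKM in every library, Eef1a2 among the 14 and Eif2c3 and Eif2c4 among the 33.

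Eif1 and the eIF1A genes help the small subunit find the start codon. Eif1 stood at 223, 184, 124 and 137 RPKM from R2 to R5. It was within 2-fold in each comparison, and its R5 against R2 log2 ratio, -0.70, lay 0.95 above the all-gene median. Its near copy Eif1b was at 58.8, 21.7, 7.96 and 11.2 RPKM, a ratio of -2.29. Eif1 thus had 15.6 times the RPKM of Eif1b in R4, against 3.79 times in R2. Eif1ay, an older symbol of the X-linked eIF1A gene Eif1ax, was at 115, 60.1, 26.8 and 25.9 RPKM. The autosomal Eif1a was much lower, at 16.1, 2.18, 1.13 and 2.21 RPKM, and had the lowest log2 ratio of all members in R3 against R2, at -2.42. Eif1ad, placed here by its symbol and counted in the family sum, lay between, at 8.17 RPKM in R5, against 42.5 in R2. Within this family the Eif1 share of summed RPKM was 49.0%, 64.6%, 74.6% and 74.2% from R2 to R5.

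eIF2 is a complex of 3 subunits that brings the initiator tRNA, and its alpha subunit is the target of the stress kinases, among them the heme-regulated kinase HRI. Eif2s1, the alpha subunit, was at 23.5, 10.9, 4.03 and 5.32 RPKM from R2 to R5. Eif2s2, the beta subunit, was at 19.0, 8.51, 3.59 and 2.96 RPKM, lower at each step. The gamma subunit is encoded on both sex chromosomes in mice, and Eif2s3x was at 135, 54.2, 18.5 and 20.04 RPKM while Eif2s3y was at 4.56, 3.97, 2.21 and 1.19. Eif2s3x had one of the 5 lowest R5 against R2 ratios, -2.69, but its values stepped as if reads had been counted over 118 bases only, so it rested on 49 reads in R5, against 366 in R2. The fold of R5 over R2 was 0.148, with a 95% counting interval of 0.108 to 0.200. Eif2a, a separate factor that can also deliver tRNA to the ribosome, was at 3.10 RPKM in R5, against 20.2 in R2.

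eIF2B reloads eIF2 with GTP, and all 5 of its subunit genes were at least 2-fold lower in both of the steps to R3 and R4, where 55.1% and 32.1% of all genes were. In those steps median scaling left 1 and 0 of the 5 at least 2-fold lower, beside 18% and 0.382% of all genes. Removal of globins left 2 and 0, beside 22.8% and 2.83%. Eif2b5, the catalytic epsilon subunit, was at 61.2, 16.3, 5.31 and 9.84 RPKM from R2 to R5. Eif2b2, the beta subunit, was at 62.1, 20.5, 9.11 and 14.1 RPKM and was the most abundant of the 5 in every library. Eif2b1, the alpha subunit, was at 45.2, 8.75, 3.68 and 6.13 RPKM, one of the 5 lowest ratios in R5 against R2, -2.69, and its share of the eIF2B sum was 12.8% to 14.4% in the later libraries, against 20.4% in R2. Eif2b4 was at 11.7 RPKM in R5, against 45.6 in R2, a ratio of -1.87. Eif2b3 was the least abundant throughout, at 0.97 RPKM in R5, against 7.09 in R2. In R5 against R2, 1 of the 5 eIF2B genes was at least 2-fold lower with median scaling, beside 13.7% of all genes, and 3 were with globins removed, beside 29.8%.

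eIF3 is the largest initiation factor, a scaffold of 13 subunits on the small ribosomal subunit. All 13 genes were at least 2-fold lower in R5 than in R2, where 76.9% of all genes were, from -2.53 for Eif3e to -1.38 for Eif3j. Their median of -2.01 became -0.41 with median scaling and -0.76 with globins removed. At least 2-fold lower were then 0 and 3 of the 13, beside 13.7% and 29.8% of all genes. The summed RPKM was 2783, 1146, 471 and 694 from R2 to R5.

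The eIF3 subunits differed widely in level. Eif3k, a small subunit outside the core of the complex, was highest in every library, at 399, 223, 108 and 146 RPKM from R2 to R5. Eif3f followed in R2, at 356, 129, 44.8 and 88.0 RPKM, and Eif3d, which can itself bind the cap, was at 265, 110, 52.9 and 69.8. The lowest were Eif3j, at 34.2, 20.3, 9.47 and 12.5 RPKM, Eif3m, at 65.2, 19.8, 9.68 and 16.0, and Eif3e, at 80.8, 32.3, 11.8 and 13.1. The highest subunit was 11.2 to 11.7 times the lowest in each library. Eif3k held 14.3%, 19.4%, 23.03% and 21.0% of the eIF3 sum from R2 to R5. Its ratio to Eif3a, the largest subunit, at 21.97 RPKM in R5, against 119 in R2, was 3.34, 4.70, 6.81 and 6.63 from R2 to R5. Eif3b, Eif3c, Eif3g, Eif3h, Eif3i and Eif3l lay between 194 and 276 RPKM in R2 and between 40.8 and 63.5 RPKM in R5. The Eif3j values rested on 40 reads in R4 and 40 in R5, since they stepped as if 154 bases had been counted.

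The eIF4 genes serve the cap end of the messenger RNA, and all 15 past the filter were at least 2-fold lower in R5 than in R2, where 76.9% of all genes were. With median scaling 5 of the 15 were, beside 13.7% of all genes, and with globins removed 7 were, beside 29.8%. eIF4A is the helicase that unwinds leaders, and its partners Eif4b and Eif4h stimulate it. Eif4a1 was at 137, 33.7, 16.1 and 30.2 RPKM from R2 to R5. Its paralog Eif4a2 was at 31.3, 6.67, 1.86 and 3.33 RPKM, with -2.90 as its R5 against R2 log2 ratio. Eif4a3, which works in the exon junction complex on spliced transcripts and not in cap-dependent scanning, was at 171, 57.2, 21.0 and 31.96 RPKM. Eif4a1 had 4.36, 5.05, 8.66 and 9.08 times the RPKM of Eif4a2 from R2 to R5.

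Eif4b had the lowest ratio of all members over the whole course as deposited. It was at 191, 38.9, 14.4 and 23.6 RPKM from R2 to R5, a log2 ratio of -2.96 that only 1.66% of all genes matched or went below. Median scaling gave -1.38 and removal of globins -1.73, and under these rescalings Eif2c1 was lowest instead, at -1.56 and -1.87. Eif4h was at 225, 98.5, 32.9 and 50.3 RPKM, a ratio of -2.14, and was the more abundant of these helicase partners in every library.

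eIF4G is the scaffold that ties the cap-binding protein, the helicase and eIF3 together. Eif4g1 was at 214, 72.5, 24.4 and 34.3 RPKM from R2 to R5. Eif4g2, a relative that lacks the site for the cap-binding protein, was at 76.9, 35.2, 16.0 and 12.9 RPKM and was lower at each step. Eif4g3 was at 25.6, 6.05, 2.68 and 3.67 RPKM. The Eif4g2 share of the eIF4G sum was 24.3%, 30.9%, 37.1% and 25.4% from R2 to R5.

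eIF4E binds the cap, and the eIF4E-binding proteins hold it away from eIF4G until growth signals release it. Eif4e was low for a general factor, at 10.6, 3.89, 1.44 and 1.08 RPKM from R2 to R5. By its annotated length those values stood for about 18 reads in R5, against 193 in R2, and the fold of R5 over R2 was 0.102, with a counting interval of 0.0600 to 0.168. Eif4e2, a cap-binding relative known for repressing translation, was at 34.7, 12.3, 6.53 and 8.67 RPKM and held 87.1% of the summed RPKM of the 3 cap-binding genes in R5, against 74.1% in R2. Eif4e3 was at 0.20 RPKM in R5, against 1.49 in R2. Eif4enif1, which carries eIF4E into the nucleus and into processing bodies, was at 32.7, 21.7, 8.38 and 9.70 RPKM.

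Among the binding proteins, Eif4ebp1 had the highest R5 against R4 ratio of all 57 members. It was at 77.4, 15.6, 6.74 and 16.9 RPKM from R2 to R5. The R5 against R4 ratio of 1.21 became 0.90 under median scaling and 1.06 once globins were removed, and the fold of RPKM was 2.50, with a counting interval of 2.20 to 2.85. Eif4ebp2 was at 107, 41.3, 25.9 and 24.6 RPKM and was not higher in R5 than in R4. Eif4ebp3 was at 16.9, 12.5, 4.92 and 6.97. The Eif4ebp1 share of the 3 binding-protein genes was 38.5%, 22.5%, 18.0% and 34.8% from R2 to R5. Relative to Eif4e, Eif4ebp1 stood at 7.28, 4.01, 4.68 and 15.6 from R2 to R5, where the 18 reads of Eif4e limit the last value.

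**Figure D3:**
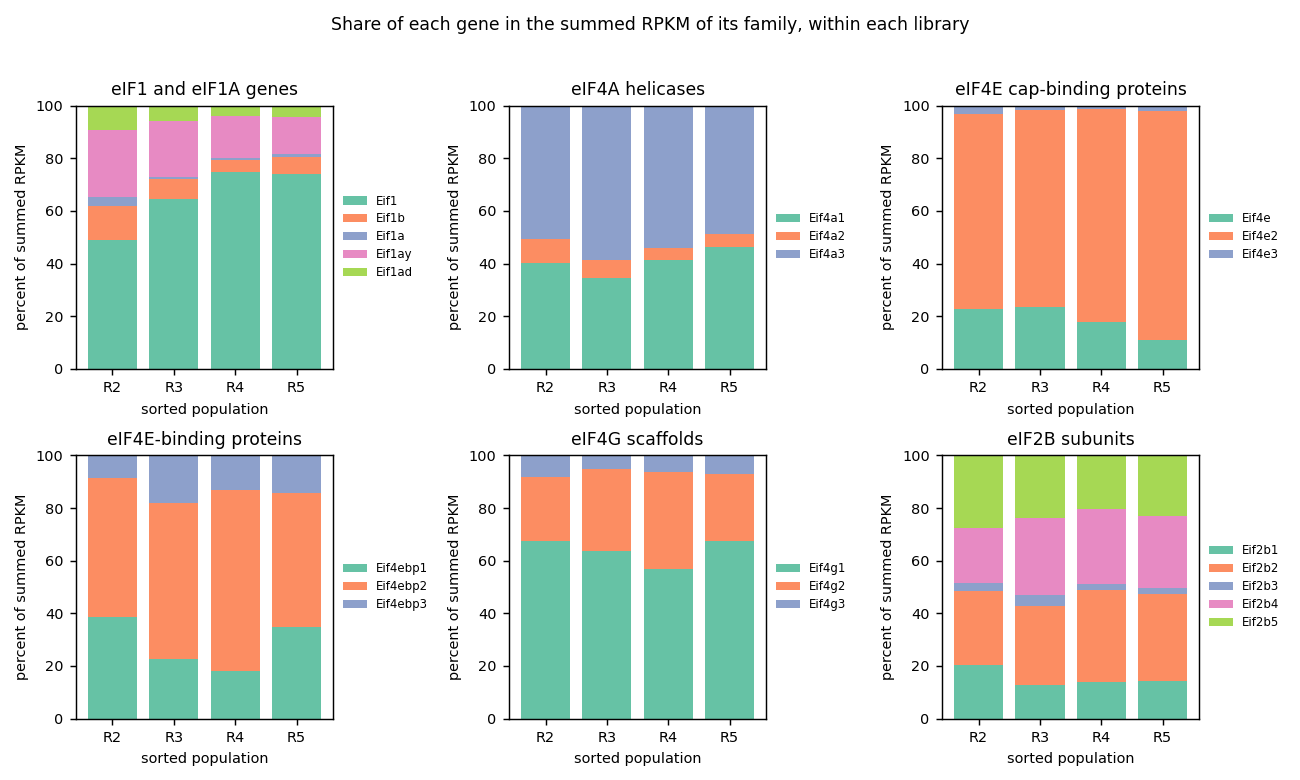
Stacked bars give the percent of summed RPKM that each gene held within its family, in each library, for 6 families. The Eif1 share is 74.6% in R4, against 49.0% in R2, the Eif4e share 10.9% in R5, against 22.7% in R2, and the Eif4ebp1 share is lowest in R4, at 18.0%.

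Eif5, which triggers GTP hydrolysis on eIF2 once the start codon is found, was the only member highest in R4 as deposited. With median scaling 8 of the 57 members were highest there, Eif5 among them, and 6 with globins removed, beside 17.8% and 9.66% of all genes. Eif5 was at 42.6, 44.7, 61.3 and 25.2 RPKM from R2 to R5. The fold of R4 over R3 was 1.37 with a counting interval of 1.32 to 1.43, within the 2-fold limit as deposited, and its log2 ratio of 0.45 was above that of 98.1% of all genes. Median scaling gave 1.52 and removal of globins 1.11, past 2-fold under both. In R5 against R4 Eif5 was at least 2-fold lower, with a log2 ratio of -1.25, and remained so at -1.62 with median scaling and -1.45 with globins removed. Only 0.2% of all genes had so low a ratio in that step. Relative to Eif2s2, the subunit of eIF2 that Eif5 binds, Eif5 stood at 2.24, 5.25, 17.1 and 8.52 from R2 to R5, a course within libraries that no scaling changes.

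Other factors of that number differed from Eif5 and from each other. Eif5b, the subunit-joining factor, was at 26.9, 14.51, 13.4 and 11.1 RPKM from R2 to R5, and its R5 against R2 log2 ratio of -1.21 became 0.30 with median scaling and -0.02 with globins removed. Eif5a, which carries the modified amino acid hypusine and keeps ribosomes moving, was among the most abundant members, at 1056, 417, 184 and 243 RPKM. Its paralog Eif5a2 was rare, at 1.03, 3.15, 1.95 and 0.60 RPKM, and was highest in R3 as deposited and with globins removed, but in R4 with median scaling. Eif5a2 rested on an estimated 406 reads in R3, against 119 in R2, and the fold of R3 over R2 was 3.06, with a counting interval of 2.49 to 3.78. Eif5a was still 132 times Eif5a2 in R3. Eif6, which binds the large subunit and keeps it from joining too early, was at 135, 37.0, 14.4 and 28.0 RPKM, with one of the 5 highest R5 against R4 ratios among members at 10 RPKM or more, 0.91.

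Eef1a1 and Eef2 were the most abundant members in every library. eEF1A delivers aminoacyl-tRNA to the ribosome, and Eef1a1 was at 3691, 1514, 525 and 775 RPKM from R2 to R5, or 23.7% of the summed RPKM of all members in R4, against 28.0% in R2. Eef1a1 has many pseudogene copies, so its level depends on how reads that match several places were counted. Eef2, the translocase, was at 2013, 811, 318 and 441 RPKM. The ratio of Eef1a1 to Eef2 stayed between 1.65 and 1.87 over the 4 libraries.

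The exchange complex eEF1B recharges eEF1A with GTP, and its subunits did not move alike. Eef1b2, the alpha subunit, was at 760, 250, 83.6 and 177 RPKM from R2 to R5. Eef1g, the gamma subunit, was at 243, 66.3, 20.8 and 44.9 RPKM and rested on 57 reads in R4, against 557 in R2, since its values stepped as if 100 bases had been counted. Both passed 2-fold in R5 against R4, each with a log2 ratio of 1.07, which was under 2-fold with either rescaling. Eef1d, the delta subunit, was at 88.5, 65.2, 45.6 and 51.2 RPKM, within 2-fold in each comparison. Eef1g was thus 2.74, 1.02, 0.456 and 0.877 times Eef1d from R2 to R5, and Eef1b2 was 1.84 times Eef1d in R4, against 8.58 times in R2. Eef1e1, a part of the aminoacyl-tRNA synthetase complex, was at 6.24 RPKM in R5, against 34.4 in R2.

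Eef2k encodes the kinase that phosphorylates and inhibits eEF2. It was at 42.5, 53.8, 39.8 and 29.1 RPKM from R2 to R5, highest in R3 as deposited. Under both rescalings R4 was highest, since the R4 against R3 log2 ratio of -0.42 became 0.64 with median scaling and 0.24 with globins removed. Its log2 ratio of R5 against R2, -0.53, became 1.02 under median scaling and 0.69 once globins were removed. Eef2 had 47.4, 15.1, 7.97 and 15.1 times the RPKM of its kinase from R2 to R5.

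**Figure D4:**
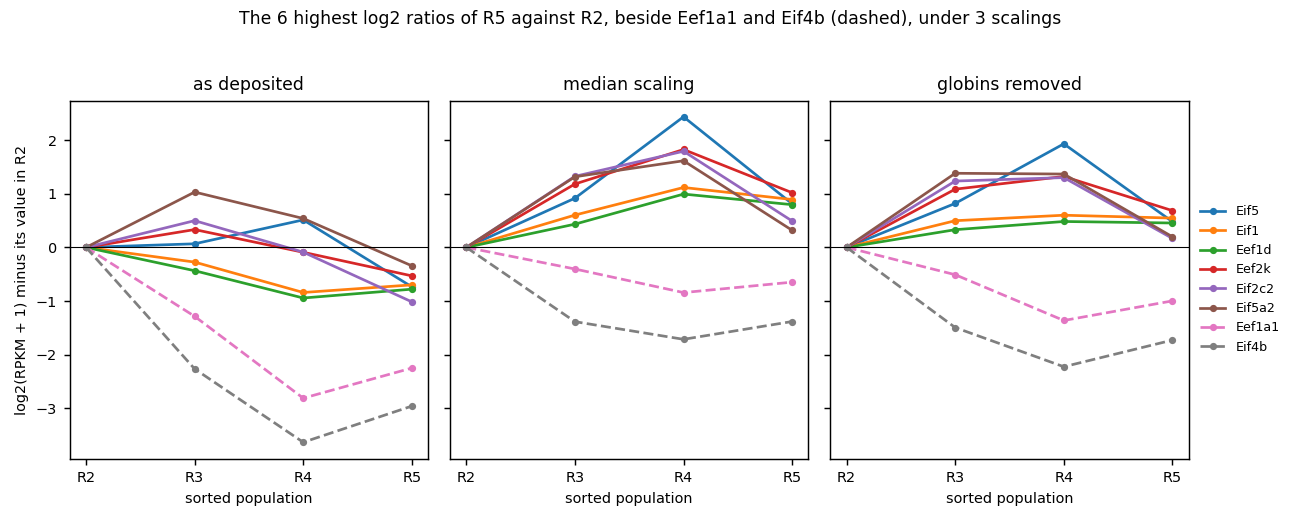
Lines give log2(RPKM + 1) of a gene minus its value in R2, in each library, for the deposited values (left), after median scaling (middle) and after removal of globins (right), for the 6 genes with the highest R5 against R2 ratios (solid) and for Eef1a1 and Eif4b (dashed). As deposited all 6 are below 0 in R5, between -1.02 for Eif2c2 and -0.34 for Eif5a2, and under both rescalings all 6 are above 0 there, while Eef1a1 and Eif4b stay below 0 under each.

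The Argonaute genes load small RNAs and silence messenger RNAs, and they are translation factors by older name only. Eif2c2, now Ago2, the slicing Argonaute that also matures the red cell microRNA miR-451, was at 25.2, 36.0, 23.7 and 11.97 RPKM from R2 to R5, highest in R3 as deposited and in R4 under both rescalings. Eif2c1, now Ago1, was at 14.3, 1.89, 0.79 and 1.13 RPKM. Eif2c2 was 1.76, 19.1, 29.9 and 10.6 times Eif2c1 from R2 to R5. Without the 4 Argonaute symbols no count of members past 2-fold moved by more than 1.5 times.

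The other 4 members did not reach 1 RPKM in any library. Eif2c3 was at 0.05 RPKM in R5, against 0.80 in R2, Eif2c4 at 0.03 in R5, against 0.35 in R2, and Eef1a2, the eEF1A gene of muscle and neurons, at 0.11 in R5, against 0.05 in R2, an estimated 5 reads and 2 reads. Eif4e1b, a germ-line relative of Eif4e, was listed at 0 in all 4 libraries. All 61 members are thus accounted for, of which 48 rested on at least 100 estimated reads in every library.

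Genes that act beside these factors were described from 2 lists. Of the 8 termination and recycling genes past the filter, 7 were at least 2-fold lower in R5 than in R2 as deposited, beside 76.9% of all genes, and 3 with median scaling, beside 13.7%, with a list median of -2.12 as deposited. Etf1, the release factor that reads stop codons, was at 8.65 RPKM in R5, against 55.9 in R2, and Abce1, which splits ribosomes after termination, at 4.10 RPKM in R5, against 35.2 in R2. Pelo, which rescues stalled ribosomes, was within 2-fold in R5 against R2, at 28.2, 24.9, 10.95 and 15.5 RPKM from R2 to R5. Of the 12 partners that bind the poly(A) tail or the cap end, 10 were lower and 0 higher in R5 than in R2 as deposited, beside 76.9% and 2.74% of all genes. With median scaling 3 were lower and 1 higher, beside 13.7% and 9.42%.

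Pabpc1, the poly(A)-binding protein that eIF4G contacts, was the most abundant of those partners and was highest in R4. It was at 709, 551, 948 and 600 RPKM from R2 to R5. Its log2 ratio of R4 against R3 was 0.78, and became 1.87 under median scaling and 1.45 once globins were removed. Ddx3x, a leader helicase, had the lowest R5 against R2 ratio of those 12, -3.16, at 5.17 RPKM in R5, against 54.1 in R2.

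**Figure D5:**
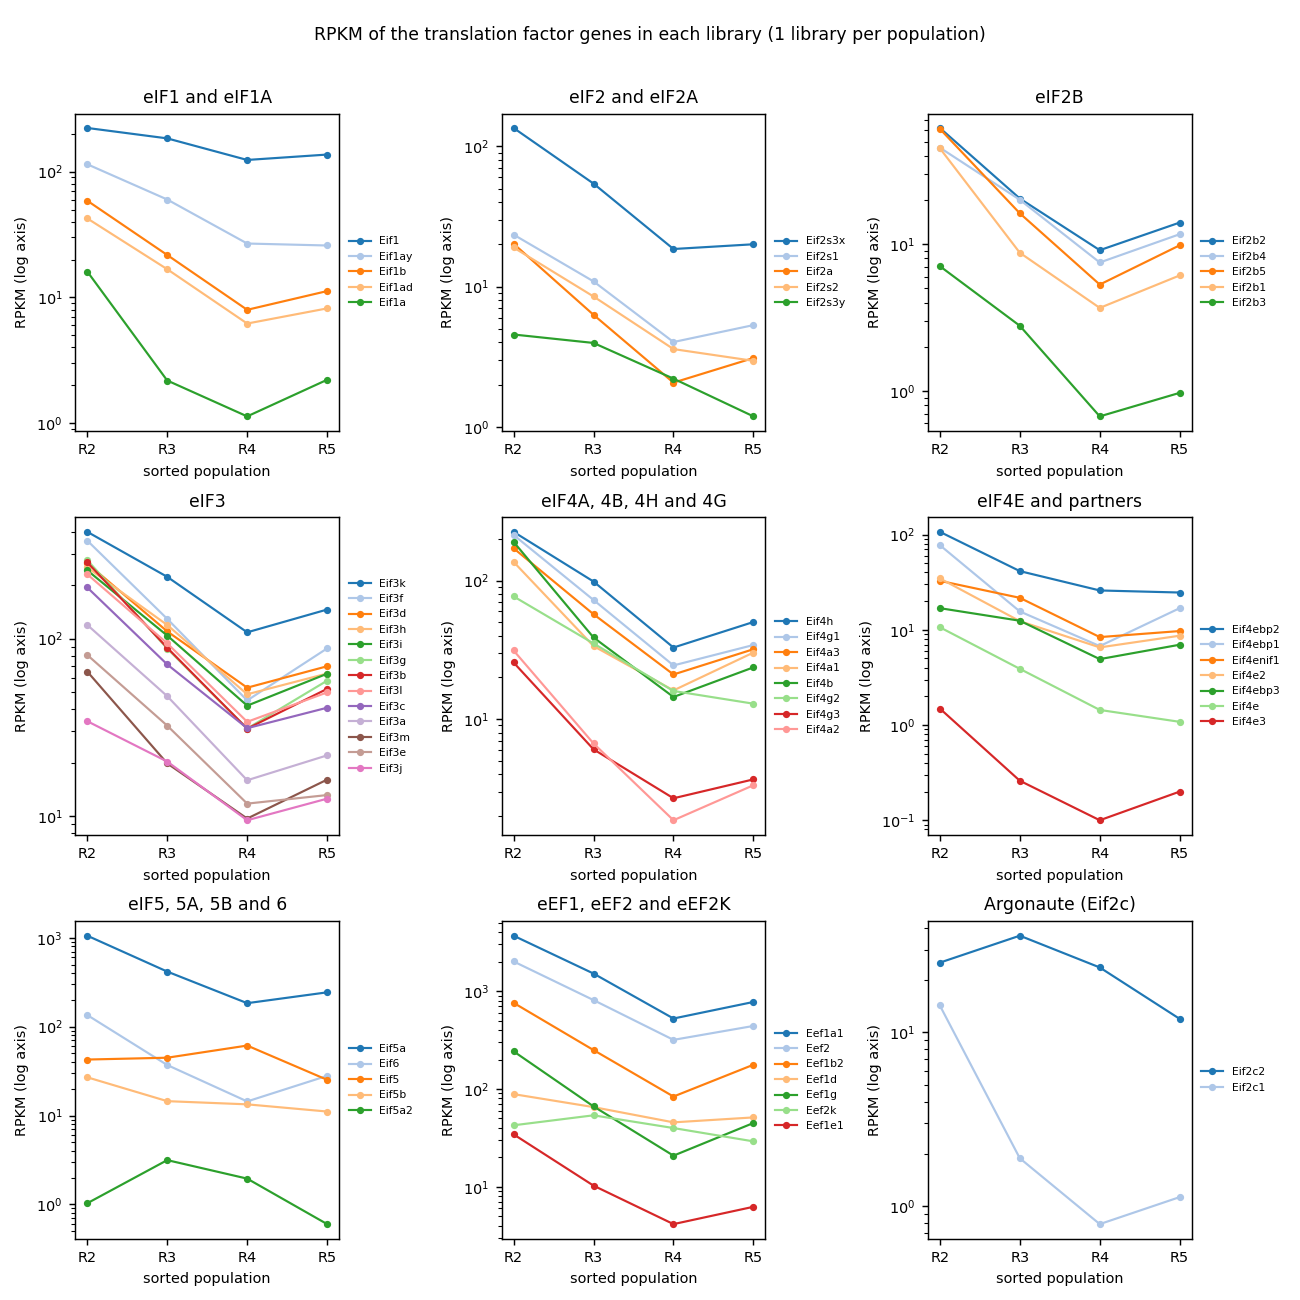
Lines give the RPKM of each of the 57 genes in each library on a log axis, by factor. Most lines drop to R4 and turn up slightly in R5, while Eif5 peaks in R4, at 61.3 RPKM, and Eef2k, Eif2c2 and Eif5a2 peak in R3 in these deposited values. After median scaling all 3 peak in R4, and after removal of globins Eef2k and Eif2c2 do.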

How the data were processed

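RPKM values were deposited by the authors, 1 file per sorted population, with 2 decimals and 1 value per gene symbol. Reads were placed on mm9, per the submitters' processing notes. Aligner, counting method, annotation and gene lengths are not given in the sources here. Members, gene lists and named genes were chosen with earlier results of these data known. Named genes were the 3 members with the highest mean of each factor number, paralogs, and the 5 highest and 5 lowest ratios per comparison among members with at least 10 RPKM, and further members were named where a family was described.

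Genes with at least 1 RPKM in some library were kept. Log2 ratios of RPKM + 1 were taken for 4 comparisons, which were read against all genes past that filter, since 1 library per population allows no test. Counts past 2-fold describe these libraries. Rescaling used either the median of gene ratios to the geometric mean over 2745 genes with at least 5 RPKM in every library, or a common sum without 7 globin genes.

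Depth came from the values: genes such as Rps27 and Gapdh took whole multiples of 1 number per library, read as the RPKM of 1 read over 1 base. Reads per member were estimated from that number and the median length of the gene's protein-coding transcripts in GENCODE vM21, an upper estimate where fewer bases could be counted. For 3 members, Eef1g, Eif2s3x and Eif3j, the bases counted could be fitted directly, with up to 400 bases searched. Counting intervals are exact (95%, conditional binomial) and cover counting error only. Current symbols came from RefSeq, 6 of them through a synonym. The ratio and call steps were tested on simulated data. Python 3.11.15, numpy 2.4.6, pandas 2.3.3 and scipy 1.17.1 were used.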

Additional observations from a re-analysis of the deposited data

How the results depend on the processing

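The counts of members past 2-fold moved most with the scaling. With median scaling, 8 members were at least 2-fold lower and 3 higher in R3 against R2, 0 lower and 1 higher for R4 against R3, 3 lower and 0 higher in R5 against R4, and 9 lower and 1 higher in R5 against R2, and the median of the members minus that of all genes was -0.071, -0.14, 0.021 and -0.16. With globins removed, 11 were lower and 3 higher, 0 lower and 1 higher, and 3 lower and 1 higher in the 3 steps, and 23 were lower in R5 against R2, with medians of -0.074, -0.23, 0.046 and -0.23 relative to all genes. Both rescalings raise every gene of a later library against R2 by construction. With a pseudocount of 0.1 RPKM the relative median turned to 0.030 in R3 against R2 and was -0.18, 0.030 and -0.065 in the other comparisons, and 2 members were lower in R5 against R4. With a pseudocount of 5 RPKM it was -0.59 for R3 against R2, -0.58 for R4 against R3 and -0.90 for R5 against R2, with 0 members higher in R3 against R2, 25 lower in R4 against R3 and 1 higher in R5 against R4. With no filter, which adds genes at or near 0, the relative medians were -1.12, -1.01, 0.33 and -1.79. With a mean of at least 5 RPKM, 0 members were higher in R3 against R2, and the relative medians were -0.23 (R4 against R3) and -0.27 (R5 against R2). The comparison of R5 with R3, added once the data had been seen, gave 12 members lower and a relative median of -0.28. Leaving out the 4 Argonaute symbols moved no count by more than 1.5 times and no relative median by more than 0.1. The 2 members under 30 estimated reads in every library, Eef1a2 and Eif4e1b, are not among the 57, so leaving them out tests nothing. Leaving out genes under 1 RPKM cannot change a ratio between paralogs; it removes Eif5a over Eif5a2 in R5 and Eif2c2 over Eif2c1 in R4. No paired analysis was possible because each population has 1 library. Depth limits Eif4e3, Eif4e, Eif2b3, Eif3j, Eif2s3y, Eif2s3x and Eef1g, which had between 7 and 57 estimated reads in their lowest library.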

Other observations

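Mitochondria translate with their own factors, and those genes were also lower in later populations. All 9 mitochondrial factor genes were at least 2-fold lower in R5 than in R2 as deposited, where 76.9% of all genes were, and 3 with median scaling, beside 13.7%. Tufm, the mitochondrial elongation factor that resembles eEF1A, was at 165, 36.3, 13.95 and 25.2 RPKM from R2 to R5. Gfm1, which moves mitochondrial ribosomes, was at 4.05 RPKM in R5, against 29.8 in R2.

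Genes listed with the enzymes that modify the factors were also mostly lower as deposited. That list also holds Eefsec, Nck1, Rptor and Ppp1r15b, which are not such enzymes themselves. Of its 19 genes, 17 were at least 2-fold lower in R5 than in R2 and 1 was higher, beside 76.9% and 2.74% of all genes. The higher 1 was the eIF2 kinase gene Eif2ak1, at 48.1, 139, 166 and 115 RPKM from R2 to R5. With median scaling 1 was lower and 1 higher, beside 13.7% and 9.42%. The enzymes that build hypusine on eIF5A differed: Dhps, which acts before Dohh, was at 28.1, 8.85, 3.27 and 6.62 RPKM from R2 to R5, and Dohh at 107, 38.3, 39.3 and 50.2. Mknk1, a kinase of eIF4E, was within 2-fold in R5 against R2, at 19.1, 23.7, 16.6 and 12.7 RPKM, and its relative Mknk2 was at 192, 96.8, 31.8 and 44.7. Eefsec, the elongation factor for selenocysteine, was at 4.67 RPKM in R5, against 21.8 in R2.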
